A study of Mus musculus with 12 samples.

Results

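The genes described here encode 8 small leucine-rich proteoglycans and 2 large, chondroitin sulfate-bearing proteoglycans of the extracellular matrix: Dcn, Lum, Bgn, Fmod, Ogn, Omd, Aspn, Prelp, Vcan and Acan. They were taken by gene name, and all 10 were found among the 26728 gene names present in both count tables. RNA was sequenced from primary vascular smooth muscle cells of the mouse aorta in 4 groups of 3 libraries: NR4A3 knockout (KO) cells at day 1, wild type (WT) cells at day 1, KO cells at day 14 and WT cells at day 14 of culture. NR4A3 is an orphan nuclear receptor, and the study asks how its loss affects vascular calcification. The protocols give every group DMEM/F12 medium with fetal bovine serum and 10 mM beta-glycerophosphate (β-GP), a phosphate donor used to drive mineral deposition. The treatment label, however, reads β-GP for KO and none for WT, so genotype and whatever that label stands for cannot be told apart. How Nr4a3 was removed, the age, sex and strain of the mice, and whether replicates were separate animals or cultures: none of these is given in the labels used here. The p-values below therefore reflect only how these libraries vary, and that variation may be technical.

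Small leucine-rich proteoglycans consist of a horseshoe-shaped core of leucine-rich repeats that binds collagen fibrils and sets their width and spacing, and most carry chondroitin, dermatan or keratan sulfate chains. Decorin, biglycan and asporin form class I, fibromodulin, lumican, PRELP and osteomodulin form class II, and osteoglycin (mimecan) belongs to class III. Decorin and biglycan also bind TGF-beta. Versican and aggrecan are lecticans, which bind hyaluronan through one end and carry many chondroitin sulfate chains. Versican is the main large proteoglycan of the artery wall, and aggrecan that of cartilage.

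Library totals ranged from 13848199 to 30105118 counts. Nr4a3 was lower in KO at both days, with 1.89, 2.002 and 2.34 CPM (counts scaled to the size of the library) in KO cells, against 4.61, 4.28 and 3.85 CPM in WT cells at day 1, and 34.3, 60.1 and 54.5 CPM in KO cells, against 238, 256 and 217 CPM in WT cells at day 14. Nr4a3 counts were thus present in every KO library. Of the contractile markers, Acta2 and Des stood at 276 to 1628 and 480 to 813 CPM on average per group, whereas Tagln, Myh11 and Myocd, which define contractile smooth muscle, averaged at most 0.244, 0.574 and 0.486 CPM in any group. The libraries of KO at day 1 and WT at day 14 were the most alike. Of 15973 genes tested in one fit of all 12 libraries, 9.78% differed between them, against 50.7% to 54.8% for the other 5 pairs of groups. Whether columns or days were exchanged between these groups before deposit was not tested, and such an exchange would change what each comparison below means. The Nr4a3 values, lower in KO at both days and far apart between these 2 groups, are as the labels have them. Replicates of WT at day 14 varied most, and replicate 1 of that group stood apart from the other two (chi-square per gene 36.2 and 51.5, against 2.91 to 19.5 for the pairs of replicates that did not involve it). The KO against WT calls of members at day 14 are given with and without it, and so are the list counts of day 14 that it moved by over 1.5 times.

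At day 1, the question is how KO cells differed from WT cells early in culture. The small proteoglycans that these cells expressed most, Dcn, Bgn and Ogn, were all lower in KO, as were Aspn and the large proteoglycan Vcan. Fmod was the one member called higher. Prelp and Omd had no call, and Lum and Acan were too low to be tested. With edgeR's quasi-likelihood test (called at an adjusted p below 0.05), 5 of the 8 members tested were lower and 1 higher, beside 30.2% and 30.6% of all 15365 genes tested (60.8% in either direction). The median log2 fold change was -0.69 over the members tested and 0.01 over all genes.

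**Figure D1:**
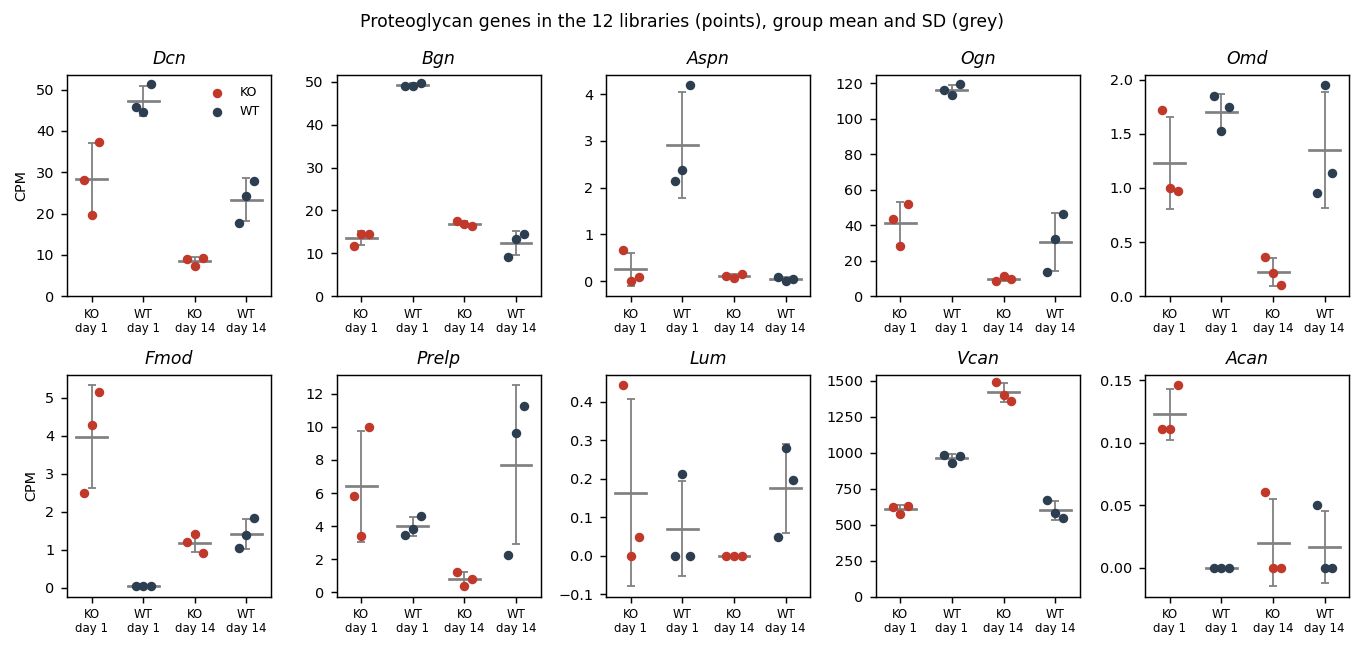
Level of each member in CPM (y axis, linear) in the 3 libraries of KO and WT at day 1 and at day 14 (x axis), with the group mean and SD in grey. At day 1 Bgn lies at 11.8 to 14.6 CPM in KO cells, against 48.9 to 49.6 CPM in WT, while Vcan reaches its highest levels in KO at day 14, from 1363 to 1495 CPM.

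Among the class I members at day 1, Dcn, which limits the width of collagen fibrils, had 28.1, 19.7 and 37.3 CPM in KO cells, against 45.8, 44.7 and 51.4 CPM in WT cells. Every KO library lay below every WT library, and the KO libraries spread more widely. The log2 fold change was -0.72 ± 0.16 (SE, adjusted p = 0.00176), and it ranged from -0.97 to -0.51 when each library in turn was left out. Bgn, the close relative of decorin, had 11.8, 14.5 and 14.6 CPM in KO cells, against 48.9, 49.0 and 49.6 CPM in WT cells. The groups were far apart and each was tight, with a log2 fold change of -1.84 ± 0.09 (adjusted p = 2.87e-09). Aspn binds collagen, and its aspartate-rich end binds calcium. It had 12, 0 and 2 counts in the KO libraries and 51, 67 and 106 in the WT libraries. Its log2 fold change was -3.51 ± 0.62 (adjusted p = 3.06e-04), and -5.66 without KO replicate 1, which held most of the KO counts.

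Ogn, the class III member and the most abundant of the small proteoglycans per kilobase in WT at day 1, had 43.2, 28.1 and 52.1 CPM in KO cells, against 116, 113 and 119 CPM in WT cells. The ranges did not meet, and the log2 fold change was -1.49 ± 0.15 (adjusted p = 2.14e-06). Its KO libraries stood in the same order as those of Dcn, with replicate 3 highest and replicate 2 lowest.

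The class II members differed from each other at day 1. Fmod, which binds collagen and acts in fibril assembly of tendon, had 45, 77 and 106 counts in the KO libraries (2.50, 4.28 and 5.17 CPM) and 1 count in each WT library. The ratio of the pooled levels was 104-fold, with a 95% counting interval of 35.1 to 508 (exact binomial, covering counting error only), and the test gave an adjusted p of 2.04e-07. Prelp, a heparin-binding member that anchors basement membranes to collagen, had 5.83, 3.39 and 9.99 CPM in KO cells, against 3.48, 3.82 and 4.64 CPM in WT cells. The groups overlapped through KO replicate 2, and the difference had no call (log2 fold change 0.70 ± 0.30, adjusted p = 0.0582). It passed without that library (1.01, adjusted p = 4.92e-04), while the value was 0.23 without KO replicate 3. It also passed with the replicate number as a block (0.61, adjusted p = 0.0370), although the numbers did not pair the libraries.

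Omd, a keratan sulfate proteoglycan known from bone, had 1.72, 1.00 and 0.975 CPM in KO cells, against 1.85, 1.52 and 1.74 CPM in WT cells. These ranges overlapped, and the difference did not pass (log2 fold change -0.46 ± 0.32, adjusted p = 0.225). Lum, which spaces the collagen fibrils of the cornea, was nearly absent, with 8, 0 and 1 counts in the KO libraries and 0, 6 and 0 in the WT libraries. Most counts of each group came from 1 library, and the ratio of 2.05 had a counting interval of 0.652 to 7.01.

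Of the large proteoglycans at day 1, Vcan had 621, 574 and 628 CPM in KO cells, against 983, 932 and 975 CPM in WT cells. No library of one group reached the other, and the log2 fold change was -0.66 ± 0.06 (adjusted p = 4.18e-07). Acan had 2, 2 and 3 counts in the KO libraries and none in WT. Set against an assumed floor of 3 counts over the WT group it would be 3.19-fold higher, which is no measured ratio. The counting interval of the ratio began at 1.97. At this depth the aggrecan transcript was close to the limit of detection in every group. The 10 adventitial fibroblast markers, whose cells are known to express Dcn, Lum and Ogn, summed to 228 to 336 CPM in the KO libraries and 556 to 564 CPM in the WT libraries at day 1, with Dpt at 0 in KO, and 7 of 8 tested were lower and 1 higher. Most of these counts came from Ly6a (-0.93 ± 0.11). Of 7 contractile markers tested at day 1, 5 were higher and 1 lower, with the largest differences in Lmod1 (3.95 ± 0.28) and Actg2 (3.68 ± 0.14). The lower one was Smtn (-0.90 ± 0.06), at 67.2 ± 3.43 CPM in KO cells, against 126 ± 6.10 CPM in WT cells. Macrophage markers, mostly Cd68, summed to 44.3 to 57.4 CPM in the KO libraries and 19.7 to 26.0 CPM in the WT libraries. Endothelial markers, mostly Cdh5, summed to 4.62 to 6.49 CPM in the KO libraries and 13.7 to 16.2 CPM in the WT libraries. Of the 2 endothelial markers tested, Cdh5 was lower (-1.92 ± 0.14) and Vwf, at a mean log2 CPM of -0.50, was higher (1.22 ± 0.45). The part of these markers in the results of day 1 was not tested, and fewer cells of a type and less RNA per cell cannot be told apart in bulk libraries.

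At day 14, the same question was asked after long culture. Dcn and Ogn were again lower in KO, and Omd and Prelp were now lower too, whereas Vcan was higher. Bgn and Fmod had no call. Of 7 members tested, 4 were lower and 1 higher, beside 23.7% and 22.7% of 14902 genes (46.4% in either direction). The median log2 fold change was -1.47 over the members tested and -0.00152 over all genes. Aspn, Lum and Acan did not pass the filter on low counts.

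Dcn had 9.004, 7.20 and 9.22 CPM in KO cells, against 17.7, 24.4 and 27.9 CPM in WT cells at day 14. The groups did not overlap, although WT replicate 1 stood lowest of its group, and the log2 fold change was -1.47 ± 0.20 (adjusted p = 3.77e-04). Bgn had 17.6, 16.9 and 16.3 CPM in KO cells, against 9.25, 13.3 and 14.6 CPM in WT cells. Every KO library lay above every WT library, by a margin that the test did not call (0.44 ± 0.18, adjusted p = 0.0756). It was called without WT replicate 3 (0.58, adjusted p = 0.0388) and in the fit of all 12 libraries (0.45, adjusted p = 0.0169). Without WT replicate 1 it had no call (0.24, adjusted p = 0.0979). Aspn had 2, 1 and 3 counts in the KO libraries and 2, 0 and 1 in the WT libraries, a ratio of 2.22 with a counting interval of 0.474 to 13.7.

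Ogn had 8.58, 11.5 and 9.76 CPM in KO cells, against 13.6, 32.04 and 46.1 CPM in WT cells at day 14. The KO libraries were tight and all below WT, where replicate 1 stood far under the other two. The log2 fold change was -1.63 ± 0.38 (adjusted p = 0.00694), and -2.02 without WT replicate 1.

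Prelp had 1.22, 0.353 and 0.809 CPM in KO cells, against 2.25, 9.63 and 11.3 CPM in WT cells at day 14, a log2 fold change of -3.26 ± 0.64 (adjusted p = 0.00290). The groups were separate, and WT replicate 1 was again the lowest of its group. Omd had 6, 3 and 2 counts in the KO libraries and 19, 28 and 23 in the WT libraries, a log2 fold change of -2.53 ± 0.54 (adjusted p = 0.00445). Fmod had 1.22, 1.41 and 0.917 CPM in KO cells, against 1.05, 1.40 and 1.83 CPM in WT cells, overlapping groups with no call (-0.29 ± 0.35, adjusted p = 0.522). Lum had no count in KO and 1, 4 and 4 counts in WT. Set against an assumed floor of 3 counts over the KO group it would be 2.70-fold lower, which is no measured ratio. The counting interval of the ratio reached up to 0.562.

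Vcan was the one member higher in KO at day 14, with 1495, 1404 and 1363 CPM in KO cells, against 670, 583 and 545 CPM in WT cells. Every KO library lay far above every WT library, and the log2 fold change was 1.23 ± 0.10 (adjusted p = 2.21e-05). Without WT replicate 1, which stood apart, the values were -1.65 for Dcn, -3.71 for Prelp, -2.75 for Omd and 1.30 for Vcan, all still called. In that fit 30.7% of all genes were called lower and 30.0% higher. Fmod was at -0.51, with no call. Acan had 1 count in each genotype. The fibroblast markers summed to 696 to 777 CPM in the KO libraries and 494 to 677 CPM in the WT libraries at day 14, mostly from Ly6a, which had no call (0.23 ± 0.12, adjusted p = 0.161). Of 7 tested, 5 were higher and 1 lower. The lower one was Cd34 (-2.39 ± 0.14, adjusted p = 4.25e-06), and Dcn and Ogn were lower as well. Of 7 contractile markers tested at day 14, 2 were higher and 3 lower, beside 22.7% and 23.7% of all genes. Acta2 was higher (1.28 ± 0.14), and Synpo2 and Des were lower (-1.83 ± 0.29 and -0.77 ± 0.20). Mesothelial markers, almost all from Msln, summed to 75.7 to 79.2 CPM in KO cells, against 257 to 393 CPM in WT. Of the other marker lists, endothelial, Schwann and adipocyte genes summed to at most 16.2, 3.66 and 0.445 CPM in any library. Macrophage genes, mostly Cd68, summed to 31.8 to 35.7 CPM in KO and 43.7 to 72.4 CPM in WT at day 14, and chondrocyte genes, mostly Sox9, to 14.5 to 15.5 CPM in KO and 25.9 to 45.3 CPM in WT. Of the 3 macrophage genes tested at day 14, Cd68 was lower (-0.92 ± 0.19), Csf1r was higher (1.36 ± 0.29) and Lyz2 had no call. The part of these markers in the results was not tested.

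**Figure D2:**
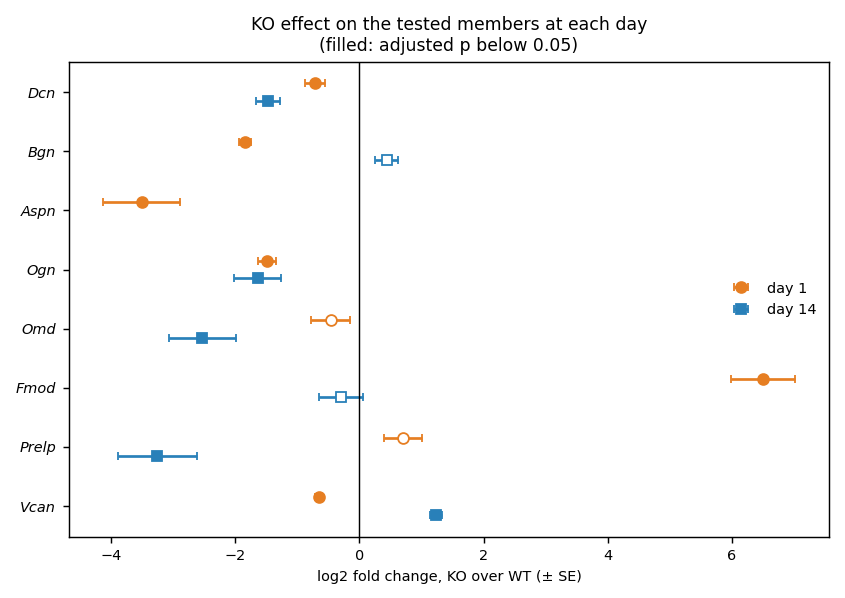
Log2 fold change of KO over WT with its standard error (x axis) for each member tested (y axis), at day 1 (circles) and day 14 (squares), filled where the adjusted p was below 0.05. Dcn and Ogn lie left of 0 at both days, while Vcan lies at -0.66 at day 1 and 1.23 at day 14; the Fmod value at day 1 rests on 3 counts in WT.

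Whether the KO effect itself changed from one day to the other was tested in one fit of all 12 libraries, where a shift common to a day's table cancels. Of 8 members tested, the KO effect was higher at day 14 for 3 and lower for 4, beside 29.5% and 30.5% of 15973 genes (60.1% in either direction). The effect on Vcan rose by 1.91 ± 0.11 on the log2 scale (adjusted p = 1.70e-09) and that on Bgn by 2.30 ± 0.20 (adjusted p = 1.26e-07). The effect on Aspn also rose, by 4.57 ± 1.56 (adjusted p = 0.0194), a call lost when KO replicate 3 of day 14 was left out (adjusted p = 0.0829). All of its 3 groups other than WT at day 1 held few counts.

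The KO effect was lower at day 14 for Prelp (-3.93 ± 0.75, adjusted p = 3.62e-04), Omd (-2.06 ± 0.63, adjusted p = 0.0108) and Fmod (-6.75 ± 0.64, adjusted p = 3.34e-07). That of Dcn was lower as well (-0.72 ± 0.29, adjusted p = 0.0414), a call that was lost in 8 of the 12 fits without a library. These left out KO replicate 1 or 3 or WT replicate 1 or 2 of day 1, or KO replicate 1 or 2 or WT replicate 2 or 3 of day 14, with adjusted p from 0.0525 to 0.131. For Ogn the change was -0.13 ± 0.44 (adjusted p = 0.820), and a difference between the days in its fall in KO was not detected.

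The comparison of day 14 with day 1 within a genotype asks how long culture in the medium changed these genes. Each day has its own count table, so day cannot be told apart from anything else in which the tables differ. In KO cells, Dcn, Ogn, Omd, Prelp and Fmod were lower at day 14 and Vcan was higher, so that 5 of 8 members tested were lower and 1 higher, beside 27.9% and 26.9% of all genes (54.8% in either direction). Prelp averaged 0.793 ± 0.432 CPM at day 14 and 6.40 ± 3.34 CPM at day 1 (SD, n = 3 each), a log2 fold change of -2.98 ± 0.59 (adjusted p = 5.32e-04). Vcan averaged 1420 ± 67.6 CPM at day 14 and 608 ± 29.7 CPM at day 1 (1.23 ± 0.08, adjusted p = 9.15e-09).

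In WT cells, Dcn, Ogn, Bgn, Aspn and Vcan were lower at day 14 and Fmod was higher, again 5 and 1 of 8, beside 26.1% and 25.8% of all genes (51.9% in either direction). Bgn averaged 12.4 ± 2.79 CPM at day 14 and 49.2 ± 0.403 CPM at day 1 (SD, n = 3 each), a log2 fold change of -1.99 ± 0.14 (adjusted p = 2.46e-08). Aspn had 3 counts in all at day 14 and 224 at day 1, a ratio of 0.0190 with a counting interval of 0.00389 to 0.0562. Fmod had 78 counts at day 14 and 3 at day 1, a ratio of 36.9 with an interval of 12.2 to 183. Prelp had no call in WT (0.95 ± 0.46, adjusted p = 0.101), but was called higher without WT replicate 1 of day 14 (1.41, adjusted p = 5.11e-04). Dcn and Ogn thus fell with time in both genotypes, with log2 fold changes of -1.74 ± 0.21 and -2.05 ± 0.33 in KO and of -1.02 ± 0.19 and -1.93 ± 0.30 in WT (adjusted p at most 4.67e-04).

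KO at day 1 and WT at day 14 were adjacent in the order of the 4 group means for 7 of the 8 members tested. Aspn was the exception, and how often this order holds over all genes was not counted. Of those 8, Fmod alone was called between these groups, as higher in KO (1 of 8, beside 9.78% of all genes called, 3.89% higher and 5.89% lower). Vcan averaged 608 ± 29.7 CPM in KO at day 1 and 599 ± 64.3 CPM in WT at day 14 (log2 fold change 0.02 ± 0.08, adjusted p = 0.898). Dcn averaged 28.4 ± 8.78 CPM in KO at day 1 and 23.3 ± 5.18 CPM in WT at day 14 (0.29 ± 0.20, adjusted p = 0.372). Fmod averaged 3.98 ± 1.36 CPM in KO at day 1 and 1.43 ± 0.391 CPM in WT at day 14 (1.48 ± 0.32, adjusted p = 0.0111), a call lost without KO replicate 3 of day 1 (1.24, adjusted p = 0.0703). A p that misses the threshold does not show that these groups are equal.

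KO at day 14 against WT at day 1 gave calls for 8 of the 8 members tested, 6 lower and 2 higher, beside 26.1% and 24.6% of all genes (50.7% in either direction). Ogn averaged 9.95 ± 1.47 CPM in KO at day 14 and 116 ± 2.99 CPM in WT at day 1 (-3.55 ± 0.33, adjusted p = 6.00e-07). Dcn averaged 8.48 ± 1.11 CPM in KO at day 14 and 47.3 ± 3.63 CPM in WT at day 1 (-2.47 ± 0.21, adjusted p = 2.24e-07). The members higher in KO at day 14 were Vcan (0.56 ± 0.08, adjusted p = 3.85e-05) and Fmod (4.71 ± 0.57, adjusted p = 7.64e-06). For Dcn and Ogn the order of the group means was therefore WT at day 1, KO at day 1, WT at day 14 and KO at day 14, in which the middle groups did not differ beyond their spread.

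Levels of different members can be set side by side only per length, here as mean CPM per kilobase of the union of a gene's exons in GENCODE M21. On this scale Vcan led in each group, at 42.0 in KO and 66.6 in WT at day 1, and at 98.2 in KO and 41.4 in WT at day 14. Ogn came next, at 16.0 in KO and 45.3 in WT at day 1, and at 3.88 in KO and 11.9 in WT at day 14. With the length of the principal transcript in place of the union, Dcn ranked above Ogn in 3 of the 4 groups, so the order of Dcn and Ogn depends on the length used. Vcan led in every group there too. That is no check of its lead, since its principal transcript has 2321 bases, against 14462 in the union, which can only raise its level per kilobase. Vcan took 97.3% to 97.5% of the counts of all members in KO at day 14, against 84.1% to 93.7% in WT at day 14, a share per gene and not per length.

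The rest of the proteoglycan pathway was followed in 9 lists. At day 1 each of them, apart from the TGF-beta list, had more genes lower than higher in KO. The enzymes that build the linker and the chondroitin or dermatan sulfate chains had 16 of 25 lower and 5 higher, beside 30.2% and 30.6% of all genes, which stand beside every list count of day 1. Csgalnact1, which starts the chondroitin chain, averaged 29.8 ± 2.59 CPM in KO cells, against 107 ± 1.79 CPM in WT cells (SD, n = 3 each), and Papss1, which makes the sulfate donor, 53.8 ± 4.19 CPM in KO cells, against 144 ± 4.84 CPM in WT cells. The chain polymerase subunit Chpf (0.81 ± 0.11) and the sulfotransferase Chst7 (1.02 ± 0.29) were higher. The median log2 fold change of the list was -0.35, beside 0.01 over all genes.

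At day 14 the same list had 11 higher and 2 lower in KO, beside 22.7% and 23.7% of all genes. These shares stand beside every list count of day 14 from all libraries. Without WT replicate 1 the list had 12 higher and 6 lower, beside 30.0% and 30.7% of all genes. These stand beside every list count without that library. The median with all libraries was 0.35, beside -0.00152 over all genes. Csgalnact1 averaged 228 ± 11.8 CPM in KO cells, against 30.8 ± 2.62 CPM in WT cells (2.87 ± 0.10, adjusted p = 3.91e-07), and the epimerase Dsel, which acts on dermatan sulfate, rose by 1.34 ± 0.10. Chst7 fell to 0.317 ± 0.137 CPM in KO, against 3.44 ± 1.26 CPM in WT. In keratan sulfate synthesis, 1 gene was higher and 2 were lower of 5 at day 1 (B4galt4 at 1.33, Chst1 at -0.85 and B4galt1 at -0.50), and 2 were higher and 1 lower at day 14 (Chst2 at 1.04 and B4galt1 at 0.33 higher, and B4galt4, named after its value was seen, at -2.48). Without WT replicate 1 of day 14, 2 were higher and 2 lower.

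**Figure D3:**
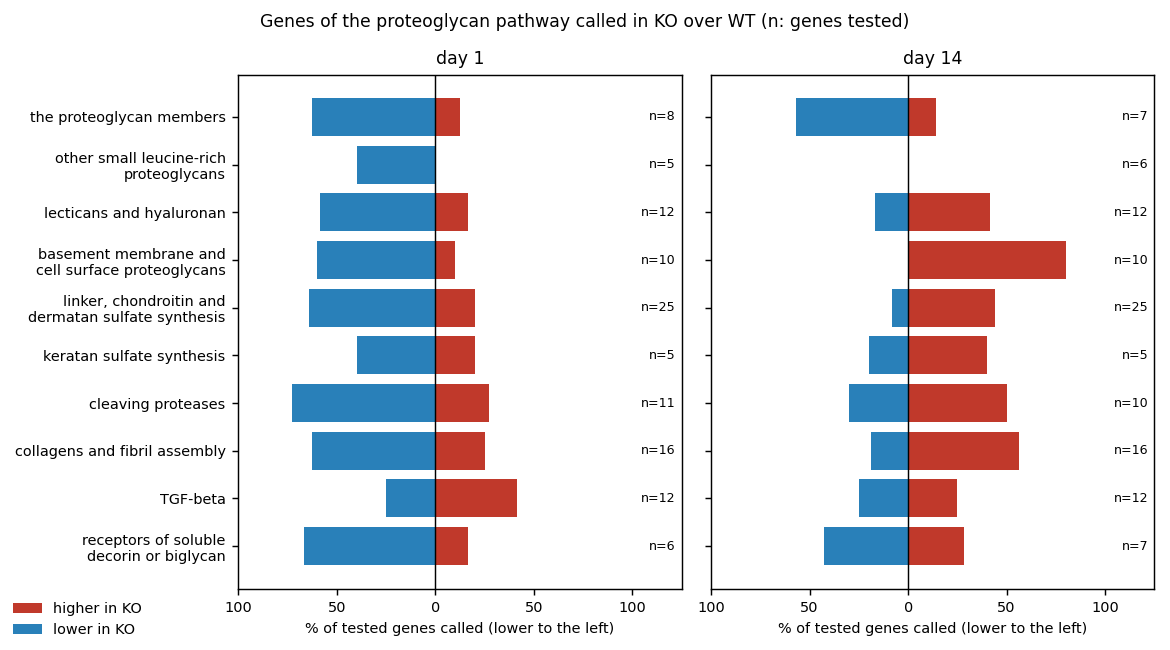
Share of the tested genes of each list called higher (right, red) or lower (left, blue) in KO over WT at day 1 and at day 14, in percent, with n the genes tested. The members have 5 lower of 8 at day 1 and 4 lower of 7 at day 14, while the basement membrane and cell surface proteoglycans have 6 lower of 10 at day 1 and 8 higher of 10 at day 14.

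Other proteoglycans divided by day as well. Basement membrane and cell surface proteoglycans had 6 of 10 lower and 1 higher in KO at day 1, led by Cspg4 (-1.76 ± 0.12) and the syndecan Sdc4 (-1.61 ± 0.06), with agrin, Agrn, higher (0.49 ± 0.09). At day 14 they had 8 of 10 higher and 2 without a call (8 higher and 1 lower without WT replicate 1), led by Sdc3 (1.88 ± 0.14) and the glypican Gpc6 (1.49 ± 0.13). Of the other small leucine-rich proteoglycans and relatives, 2 of 5 were lower at day 1, Podnl1 (-1.07 ± 0.11) and the signalling antagonist Tsku (-0.61 ± 0.09), and 6 of 6 had no call at day 14 by edgeR (lowest adjusted p = 0.106, 0 at an unadjusted p below 0.05). Among the genes of hyaluronan, the partner of versican, 7 of 12 were lower and 2 higher at day 1, and 5 were higher and 2 lower at day 14. The synthase Has1 averaged 6.74 ± 0.648 CPM in KO cells, against 44.4 ± 1.18 CPM in WT cells at day 1, and 27.9 ± 4.14 CPM in KO cells, against 8.50 ± 1.18 CPM in WT cells at day 14. Cemip, which degrades hyaluronan, moved the same way (-1.66 ± 0.15 and 2.71 ± 0.24), and Itih2, whose protein forms complexes with hyaluronan, the opposite way (2.84 ± 0.34 and -2.49 ± 0.30).

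Proteases that cleave proteoglycans, counted without their inhibitor Timp3, had 7 of 10 lower and 3 higher at day 1, and 5 of 9 higher and 2 lower at day 14. The versicanase and aggrecanase Adamts5 averaged 31.0 ± 2.58 CPM in KO cells, against 20.2 ± 2.58 CPM in WT cells at day 1, and 11.0 ± 1.94 CPM in KO cells, against 44.4 ± 17.2 CPM in WT cells at day 14. Adamts4 went the other way (-1.28 ± 0.18 and 2.14 ± 0.20), as did the stromelysin Mmp3 at day 1 (-1.32 ± 0.08). Bmp1, the protease that trims several small proteoglycans and procollagen, was higher at day 14 (2.15 ± 0.13). Timp3, an inhibitor of several of these proteases, was lower at both days, and at day 14 stood at 50.8 ± 9.08 CPM in KO cells, against 235 ± 22.7 CPM in WT cells. Of the collagens and fibril regulators, 10 of 16 were lower and 4 higher at day 1, and 9 of 16 were higher and 3 lower at day 14, led by Lox and Col3a1 (-3.01 ± 0.09 and -2.90 ± 0.06) at day 1 and by Lox and Col6a2 (3.38 ± 0.30 and 3.14 ± 0.29) among those higher at day 14. Col11a1 and Tnxb, higher at day 1 (1.00 ± 0.14 and 2.03 ± 0.16), were lower at day 14, and Col11a1 had the largest difference of the list there (-4.41 ± 0.39 and -2.63 ± 0.13).

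**Figure D4:**
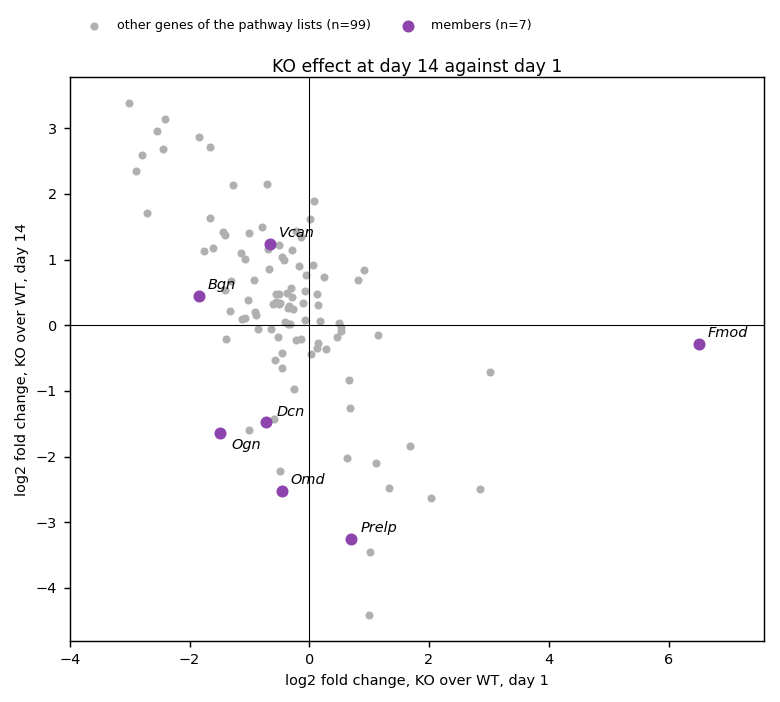
Log2 fold change of KO over WT at day 14 (y axis) against that at day 1 (x axis) for 7 members (purple) and 99 other genes of the pathway lists (grey) tested at both days. Genes of these lists that are also cell type markers are left out. Dcn and Ogn lie at the lower left, where 4 of the other genes were called lower at both days, and Vcan in the upper left, where 33 were called lower at day 1 and higher at day 14. The same split over all tested genes was not counted.

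Over these lists, 99 genes that were neither members nor cell type markers were tested at both days. Of those called at both, 33 were lower at day 1 and higher at day 14, 11 were higher and then lower, 4 were lower at both days and 2 were higher at both. Vcan belonged to the first kind, and Dcn and Ogn were lower at both days. The 4 other genes lower at both days, named after their values were seen, were Col1a1 (-1.01 ± 0.07 at day 1 and -1.59 ± 0.24 at day 14), Timp3 (-0.48 ± 0.06 and -2.22 ± 0.14), Mmp2 (-0.26 ± 0.08 and -0.97 ± 0.31) and Met (-0.57 ± 0.06 and -0.53 ± 0.08). Chpf and Adamts1 were higher at both days. So was Col14a1 of the collagen list (1.34 ± 0.50 and 2.02 ± 0.39), which was left out of these counts as a fibroblast marker. All tested genes were not split in this way, so these counts do not show a trait of the lists. The KO effect changed between the days for 60.1% of all 15973 genes tested in the fit of 12 libraries.

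Genes with the profile most like each member were found as those with the smallest root mean square difference of centred log2 CPM over the 12 libraries, among 13072 tested genes. For Vcan they were Slc39a14, a metal ion transporter, and Il1r1, the interleukin-1 receptor (0.09 and 0.09). For Bgn they were the mitochondrial carbonic anhydrase Car5b and the cyclooxygenase Ptgs1 (0.19 and 0.20), and for Dcn the annexin Anxa8 and a gene listed as AC154232.2 (0.19 and 0.25). Omd was closest to Timp3 and the heparan sulfate sulfatase Sulf1 (0.35 and 0.38), Prelp to the natriuretic peptide receptor Npr3 and to Ablim3 (0.44 and 0.46), and Ogn to Npy4r and Efhd1 (0.46 and 0.48). Fmod, whose own SD over the libraries was 2.03, was closest to Limch1 and H2-M10.1 (0.53 and 0.61), and Aspn, with an SD of 2.12, to Klf12 and Gfpt2 (0.58 and 0.79). Limch1, Klf12 and Gfpt2 ranged from 0 to 2.17, 3.54 and 2.86 CPM over the libraries, and Ablim3 from 0.141 to 3.27 CPM. Their likeness therefore rests in part on libraries with few counts. Among the members, the closest pair was Dcn and Ogn (0.52), followed by Dcn and Omd (0.56) and by Bgn and Vcan (0.78), and the farthest was Fmod and Aspn (3.99).

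Several members lie side by side in the genome, by the gene order of the RefSeq table for GRCm38.p6. On chromosome 13, Ecm2, Aspn, Omd and Ogn follow each other, and Nol8 comes next. At day 1 Aspn and Ogn of this run were lower in KO, Omd and Ecm2 had no call (-0.46 ± 0.32 and -0.05 ± 0.40), and Nol8, a ribosome biogenesis gene, was higher (0.82 ± 0.07, adjusted p = 2.99e-07). At day 14 Omd and Ogn were lower, and Ecm2 and Nol8 had no call (0.77 ± 0.57 and -0.47 ± 0.17), although Nol8 was called lower without WT replicate 1 (-0.24 ± 0.09, adjusted p = 0.0217). On chromosome 10, Dcn lies between Btg1 and Lum. Btg1, an antiproliferative gene, was lower at both days (-0.35 ± 0.05 and -0.74 ± 0.08), as Dcn was, and Atp2b1, a calcium pump gene beyond Lum, was lower at day 1 and higher at day 14 (-1.39 ± 0.06 and 0.30 ± 0.09). On chromosome 1, Prelp and Fmod lie between Optc and Btg2, another antiproliferative gene, which was higher at day 1 and lower at day 14 (1.10 ± 0.07 and -2.26 ± 0.14). Atp2b4, which lies beyond Optc, went the opposite way (-2.53 ± 0.08 and 2.09 ± 0.23). Of 18 neighbours tested that are no members, 6 were higher and 8 lower at day 1 (30.6% and 30.2% of all genes), and 5 and 6 at day 14 (22.7% and 23.7% of all genes). The antisense gene Gm15851, which overlaps 9.68% of the exonic bases of Prelp, was listed at 0 in all libraries of day 14 and was not listed at day 1.

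The promoters of 8 members were in the RefSeq table of build GRCm38.p6. The 250 bases before the annotated start are printed for the run on chromosome 13, since its members differ in their response, and for Bgn and Vcan, whose KO effects both rose between the days, with lower case letters and matches to the motifs below in capitals, in the direction of the gene.
Aspn promoter, chr13:49544193-49544442, plus strand: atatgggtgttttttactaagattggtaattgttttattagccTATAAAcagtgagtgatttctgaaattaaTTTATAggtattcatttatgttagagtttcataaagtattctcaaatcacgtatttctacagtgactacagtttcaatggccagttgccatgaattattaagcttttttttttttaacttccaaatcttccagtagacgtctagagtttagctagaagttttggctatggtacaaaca
Omd promoter, chr13:49582212-49582461, plus strand: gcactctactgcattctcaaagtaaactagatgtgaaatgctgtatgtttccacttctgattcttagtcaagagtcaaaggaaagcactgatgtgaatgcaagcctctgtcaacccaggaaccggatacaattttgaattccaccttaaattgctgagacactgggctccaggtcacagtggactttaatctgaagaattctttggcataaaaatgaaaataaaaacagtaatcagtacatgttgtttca
Ogn promoter, chr13:49607765-49608014, plus strand: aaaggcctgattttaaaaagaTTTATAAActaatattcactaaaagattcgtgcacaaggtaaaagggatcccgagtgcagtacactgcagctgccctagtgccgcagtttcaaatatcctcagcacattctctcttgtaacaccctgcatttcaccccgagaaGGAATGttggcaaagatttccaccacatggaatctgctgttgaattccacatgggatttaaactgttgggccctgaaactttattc
Bgn promoter, chrX:73483351-73483600, plus strand: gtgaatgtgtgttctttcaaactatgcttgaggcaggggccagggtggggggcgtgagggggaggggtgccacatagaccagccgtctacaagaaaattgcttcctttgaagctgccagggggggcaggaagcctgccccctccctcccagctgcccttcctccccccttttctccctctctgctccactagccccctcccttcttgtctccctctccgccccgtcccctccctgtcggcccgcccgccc
Vcan promoter, chr13:89742513-89742762, minus strand: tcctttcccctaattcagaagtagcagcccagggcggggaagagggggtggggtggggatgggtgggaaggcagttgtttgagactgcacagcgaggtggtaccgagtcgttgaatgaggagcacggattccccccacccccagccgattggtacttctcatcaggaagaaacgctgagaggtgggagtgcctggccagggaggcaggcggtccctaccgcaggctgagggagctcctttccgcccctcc
The motifs searched on both strands were the NR4A response element AAAGGTCA, the TATA-like TATAAA, the TEAD motif GGAATG and the AP-1 motif TGANTCA. None of the 8 promoters held AAAGGTCA or TGANTCA, which 1.34% and 6.75% of all 32851 promoter windows of this length held. TATAAA was found in the windows of Aspn and Ogn (12.4% of all windows), in Ogn as overlapping matches on both strands. Counted from the annotated start, they lie at -207 and -178 in Aspn and at -227 and -229 in Ogn, farther upstream than a TATA box usually lies. For Ogn, Bgn, Vcan and Acan, the first bases after that start were not found in a transcript of GENCODE M21, so their windows rest on the RefSeq start alone. GGAATG was found in those of Ogn and Acan (12.6% of all). The windows of Aspn, Omd and Ogn had 30.0%, 38.4% and 42.0% G and C, and those of Bgn and Vcan 64.4% and 62.4%, against a median of 52.4%. A match is a description of these letters, and no match says only that they are not in this window.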

How the data were processed

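The authors deposited whole-number read counts per gene, 1 table for each day. The genome build is mm9, per the submitters' processing notes, and the aligner, counter, annotation and strand setting are not named in the labels or file headers. Per the labels' protocols, RNA was extracted with TRIzol and libraries came from the NEBNext Ultra kit. Columns headed CTR were read as WT. Repeated lines were removed (43 and 53), and so were 2 names with differing counts in each table.

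The counts were tested in R 4.3.3 with edgeR 4.0.16: TMM scaling, filterByExpr, the quasi-likelihood test, and Benjamini-Hochberg adjustment across all tested genes. KO and WT were compared in a fit of each day's 6 libraries, and all other contrasts in 1 fit of 12 libraries, which also gave the CPM. SE is the absolute log2 fold change divided by √F. The filter kept 8 of 10 members at day 1, 7 at day 14 and 8 in the fit of 12. Group values are mean ± SD.

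The members and lists were chosen with earlier results of these data known. Genes outside the members were named by rule: Nr4a3, per list and day up to 2 called genes in each direction (mean log2 CPM no lower than 1), and the 2 nearest profiles per member. Outside this rule, defining markers were named, neighbours were named by position, and genes called the same way at both days were named after their values were seen. Vwf at day 1 and Lyz2 at day 14 were also named after their values were seen. Alternatives were DESeq2 1.42.0, limma-voom (limma 3.58.1), other scalings and filters, a replicate block, other sets of libraries and leaving out each library. The lists at day 14 without WT replicate 1 were added after seeing the data. Whether shared replicate numbers pair libraries was checked by correlating deviations from group means.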

Additional observations from a re-analysis of the deposited data

Results flagged for a closer look

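The KO effect differed between the days, by the interaction test of the 12-library fit (edgeR, Benjamini-Hochberg over 15973 genes), for 7 of the 8 members tested, beside 60.1% of all genes. It was higher at day 14 for Vcan (1.91 on the log2 scale, adjusted p = 1.70e-09), Bgn (2.30, adjusted p = 1.26e-07) and Aspn (4.57, adjusted p = 0.0194). It was lower at day 14 for Fmod (-6.75, adjusted p = 3.34e-07), Prelp (-3.93, adjusted p = 3.62e-04), Omd (-2.06, adjusted p = 0.0108) and Dcn (-0.72, adjusted p = 0.0414). The Fmod value rests on 3 counts in WT at day 1, and Aspn had 14, 6 and 3 counts in KO at day 1, KO at day 14 and WT at day 14. Dcn was lower in KO at both days, so its result concerns the size of the fall. The call for Dcn was lost in 8 of the 12 fits without a library, and that for Aspn in 1.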

How the results depend on the processing

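In the alternatives run, the number of members called lower stayed within 1.5 times that reported. Of the members called higher, the number at day 1 was 1 and became 2, by Prelp, with DESeq2, with library size alone, without a filter and with the replicate block, and ranged from 1 to 2 when a library was left out. At day 14 it was 1 and became 2, by Bgn, without a filter and in the fit of all 12 libraries, and ranged from 1 to 2 when a library was left out. For day 14 against day 1 it became 2 without a filter in WT and 2 in the fit of the 6 KO libraries, and ranged from 1 to 2 in both. For KO at day 1 against WT at day 14 it ranged from 0 to 1. For the change of the KO effect, 2 to 3 members were called higher and 3 to 4 lower. With limma-voom, 2 values without a call changed sign: the change of the KO effect on Ogn (0.083, and -0.52 to 0.29 when a library was left out) and day 14 against day 1 in KO for Aspn (0.15, and -1.57 to 1.15). Of KO at day 1 against WT at day 14, leaving out a library gave -0.077 to 2.87 for Aspn, -0.034 to 0.29 for Bgn, -0.43 to 0.23 for Omd, -0.75 to 0.16 for Prelp and -0.041 to 0.11 for Vcan, none of them called. The cause of these changes was not tested. With limma-voom the change of the KO effect on Dcn did not pass (-0.65, adjusted p = 0.0889). Library size alone in place of TMM moved the median log2 fold change over all genes by 0.12 at day 1 and by -0.07 at day 14. It moved the share of higher genes among all calls to 61.7% in place of 50.4% at day 1. No member's direction changed with it. The same replicate number did not pair KO and WT libraries (correlations of deviations from -0.0245 to 0.00731), and the replicate block changed no other call of a member in the comparisons fitted with it than that of Prelp at day 1 (0.61, adjusted p = 0.0370). Without WT replicate 1, a setting chosen after seeing the data, the lists at day 14 had at most 4 more genes lower than with it, as in sulfate chain synthesis (6 of 25). In that fit 30.7% of all genes were called lower, against 23.7% with all libraries. Depth limits Lum and Acan, with at most 9 and 7 counts in any group, and Aspn outside WT at day 1.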

Other observations

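Genes of TGF-beta signalling, whose ligands decorin and biglycan bind, had 5 of 12 tested higher and 3 lower in KO at day 1, and 3 higher and 3 lower at day 14, beside 30.6% and 30.2% of all genes higher and lower at day 1 and 22.7% and 23.7% at day 14 (medians of 0.11 and 0.06 on the log2 scale, beside 0.01 and -0.00152 over all genes). Ctgf, a matricellular growth factor modulator, averaged 97.2 ± 9.51 CPM in KO cells, against 12.04 ± 0.534 CPM in WT cells at day 1 (SD, n = 3 each), and Ltbp4, a binding protein of latent TGF-beta, was higher too (1.14 ± 0.10), while Ltbp1 and the receptor Tgfbr2 were lower (-1.13 ± 0.05 and -0.50 ± 0.07). At day 14 the ligand Tgfb1 and Ltbp2 were higher in KO (0.92 ± 0.16 and 1.62 ± 0.19). Tgfb2 averaged 16.9 ± 1.79 CPM in KO cells, against 71.7 ± 28.1 CPM in WT cells.

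Receptors that soluble decorin or biglycan are known to bind had 1 of 6 tested higher and 4 lower in KO at day 1, and 2 of 7 higher and 3 lower at day 14, beside the same shares of all genes. Tlr4, a receptor of soluble biglycan, averaged 90.2 ± 4.02 CPM in KO cells, against 184 ± 3.68 CPM in WT cells at day 1, and 139 ± 5.26 CPM in KO cells, against 106 ± 6.07 CPM in WT cells at day 14. Egfr was lower at day 1 (-0.64 ± 0.08), Tlr2 was higher at day 14 (0.57 ± 0.17), and Met was lower at both days. Igf1r was higher at day 1 and lower at day 14 (0.27 ± 0.06 and -0.36 ± 0.09).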
